A study of Homo sapiens with 7 samples.

Results

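Sites where signal of the PAX3-FOXO1 fusion protein was counted around MYCN and SOX8 were examined in Rh4 cells. The cells were kept without or with a compound that targets the fusion for degradation. The data used here hold no measure of protein level. Members were all sites of the deposited count table whose centre lay within 250 kb of the hg19 interval of either gene, MYCN at chr2:16080683-16087129 or SOX8 at chr16:1031808-1036979. The rule used position only and found 11 of the table's 5782 sites, 6 at MYCN and 5 at SOX8. Of these, 10 held enough reads to be tested, and the 1 that did not lies at SOX8.

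Rh4 is an established line of alveolar rhabdomyosarcoma, a childhood tumour with features of skeletal muscle. The cells expressed PAX3-FOXO1 fused to an HA epitope and to the FKBP degron, and all libraries analysed were made by CUT&RUN with an antibody against HA. In this assay a nuclease is directed to the antibody, and the DNA it releases is sequenced. There were 3 groups of crosslinked cells with 2 libraries each: DMSO as the control, 500 nM dTAG47 for 2 h, and 500 nM dTAG47 for 4 h. dTAG47 is a small molecule that recruits a ubiquitin ligase to the FKBP degron, so that the tagged protein is degraded. The labels do not say whether the libraries came from separate cultures, so the spread that p-values measure may be purely technical.

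PAX3-FOXO1 arises from a chromosomal translocation and couples the PAX3 paired domain and homeodomain to the FOXO1 transactivation domain. It binds largely at distal enhancers and is known for switching on a set of transcription factors that then act with it. MYCN is one of these, a MYC-family factor that pairs with MAX and drives growth. SOX8 is another, an HMG-box factor of the SOXE group that is expressed in muscle satellite cells. Both belong to the group of core regulatory factors of fusion-positive rhabdomyosarcoma, together with MYOD1 and MYOG.

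Library totals set the limits of all values below. Total reads in the 5782 sites ranged from 110440 (2 h, library B) to 380057 (DMSO, library B), and the 2 libraries of a group differed in total by up to 2.07-fold at 2 h and 1.68-fold with DMSO. The 2 columns of the 4 h group did not differ beyond the sampling noise over 5575 sites (chi-square test p = 0.24, with a statistic of 1.01 per degree of freedom). For this reason n counts them as 1 sample, although the fits and the exact permutation tests kept both as separate samples. Counts are given below in the order library A, library B. Over all tested sites the median raw log2 change was -0.93 at 2 h and -1.08 at 4 h, and each site near MYCN and SOX8 is read against these medians. A raw change compares counts without scaling, so sequencing depth stays in it, as does a loss common to most sites. These cannot be told apart here, since the totals count only reads in sites. A relative change compares a site with the typical site after TMM scaling, which removes a change common to most sites. Under this scaling the median of all sites was 0.01 at 2 h and 0.02 at 4 h. Both kinds of change come from edgeR's quasi-likelihood test over all 5575 tested sites, with p-values adjusted over all of them.

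The sites lay differently around the 2 genes. Near MYCN they were spread over 320.7 kb, with 3 before the start of the gene, 1 inside it and 2 after it. Near SOX8 they spanned 67.3 kb, with 1 before the start and 4 after the end of the gene. No site lay inside SOX8. Other sites within 250 kb numbered 3 to 6 for each MYCN site and 4 for each SOX8 site, against a median of 2 over all sites of the table. Each SOX8 site had its nearest neighbour at 4.34 to 44.8 kb, against a median of 68.7 kb over the table. By RefSeq (GRCh38.p14, used only for the order of genes), MYCN overlaps the antisense transcript MYCNOS, with the noncoding MYCNUT before it and the protein-coding neighbours DDX1 and CYRIA. SOX8 lies between LMF1 and SSTR5. Which of these genes a site acts on cannot be read from its position.

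**Figure D1:**
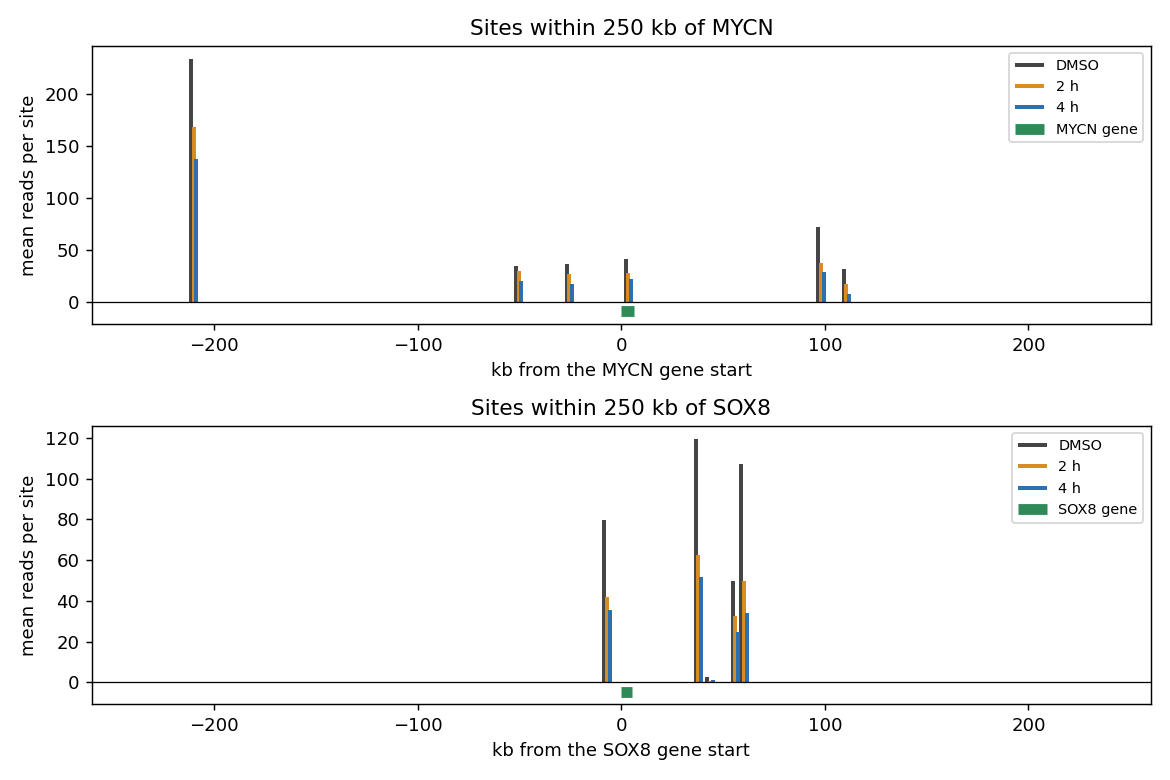
Mean reads per site (vertical axis, linear from 0) against distance of the site centre from the gene start in kb, for MYCN (top) and SOX8 (bottom). Grey, orange and blue lines are the means of the 2 libraries with DMSO, after 2 h and after 4 h of dTAG47, set side by side for clarity, and the green bar is the gene. The tallest MYCN line stands 210.1 kb before the gene, with a DMSO mean of 234.5 reads, and the SOX8 lines crowd within 67.3 kb.

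Counts of the fusion's HA signal were lower at 4 h than with DMSO at all 10 tested members, by 1.7-fold to 3.89-fold. Over the whole table, the raw log2 change at 4 h was below 0 at 5451 of 5575 tested sites. No single member passed edgeR's test over all 6 columns, which 6.19% of all tested sites passed. The mean total over the whole table at 4 h was 50.8% of that with DMSO, so much of the members' difference is shared with other sites. The lowest raw log2 changes at 4 h were at 1 site beyond each gene, 104.2 kb after MYCN and 55.1 kb after SOX8. The highest relative log2 change at 4 h was at the strongest site, far before MYCN. Summed over the locus, the mean count at 4 h was 1.93-fold lower at MYCN and 2.45-fold lower at SOX8.

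The strongest site of either locus, chr2:15870390-15870790, lay 210.1 kb before the MYCN gene. The site held 182 and 287 reads in the controls, 234 and 103 in the 2 h libraries, and 126 and 149 in the 4 h pair. Both 4 h counts lay below both DMSO counts, while the 2 h counts overlapped them, with 2 h library A between the controls. By its DMSO mean it ranked number 53 of the 5782 sites, and it alone supplied 53.8% and 50.9% of the reads of the MYCN locus with DMSO. That part was 53.4% and 58.2% in the 2 h libraries and 59.7% and 58.0% in the 4 h pair. The raw log2 change at 2 h was -0.48 (SE 0.53). The site kept 58.6% of its mean DMSO count at 4 h, a raw log2 change of -0.77 (SE 0.53, edgeR adjusted p = 0.266), and 74.5% of all tested sites had a lower value. As a fraction of each library's reads, it was higher in both 2 h and both 4 h libraries than in both controls. Set against the typical site by TMM scaling, its log2 change was 0.45 (SE 0.23) at 2 h and 0.32 (SE 0.23) at 4 h, which did not pass the test (edgeR adjusted p = 0.261 and 0.405).

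A pair of weaker sites lay before MYCN at 50.5 and 25.5 kb from its start. The first, chr2:16029971-16030371, had 27 and 43 reads in the controls, 37 and 23 in the 2 h libraries, and 17 and 23 in the 4 h pair. The 2 h counts overlapped the controls and the 4 h counts did not. The raw log2 change was -0.22 (SE 0.72) at 2 h and -0.80 (SE 0.73) at 4 h. Its relative log2 change at 2 h, 0.72 (SE 0.26), was the highest of all members at that time. It missed the threshold (unadjusted p = 0.0078, edgeR adjusted p = 0.0802), and 94.4% of tested sites had a lower value. The second, chr2:16054983-16055383, had 24 and 49 reads in the controls, 43 and 10 in the 2 h libraries, and 16 and 18 in the 4 h pair. Of the 2 h libraries, B lay below both controls and A between them, and both 4 h counts lay below both controls. Its raw log2 change was -0.46 (SE 0.71) at 2 h and -1.10 (SE 0.73) at 4 h, the latter close to the median site, and its relative change was 0.47 (SE 0.27) and 0.01 (SE 0.31).

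The only site inside either gene was chr2:16083895-16084295, whose centre lay 3.41 kb after the MYCN start. Whether it falls in an exon or an intron was not examined, since no hg19 gene models were used here. It held 29 and 53 reads in the controls, 44 and 11 in the 2 h libraries, and 17 and 28 in the 4 h pair. The 4 h counts were below both controls, though the higher of them, 28, came within 1 read of DMSO library A. Its DMSO level was ordinary, with 54.4% of all sites lower. The raw log2 change was -0.57 (SE 0.73) at 2 h and -0.86 (SE 0.74) at 4 h, and the relative change 0.36 (SE 0.27) and 0.24 (SE 0.28).

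Beyond the gene, a pair of sites lay 12.4 kb apart, at 91.7 and 104.2 kb from the end of MYCN. The nearer, chr2:16178640-16179040, was the second strongest of the locus, with 48 and 97 reads in the controls, 58 and 18 in the 2 h libraries, and 28 and 30 in the 4 h pair. Its mean at 4 h was 40.0% of that with DMSO, and the raw log2 change was -0.93 (SE 0.76) at 2 h and -1.32 (SE 0.77) at 4 h. Its relative change was 0.00 (SE 0.22) and -0.20 (SE 0.24). The farther, chr2:16191082-16191482, had 28 and 35 reads in the controls, 22 and 12 in the 2 h libraries, and 7 and 9 in the 4 h pair. Here both times lay below both controls, and 25.4% of the mean DMSO count was left at 4 h.

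That farther site had the lowest log2 changes at 4 h among the tested members. Its raw log2 change was -0.88 (SE 0.65) at 2 h. At 4 h it was -1.96 (SE 0.70), and 8.29% of tested sites had a lower one. The edgeR adjusted p was 0.0638 (unadjusted p = 0.00507). With only the DMSO and 4 h libraries in the fit it was 0.0058, and that fit called 24.5% of tested sites. Among alternatives with 2 libraries in each fitted group, the highest adjusted p was 0.322, with the column letter as replicate block. Where 1 library was left in a group, only the raw log2 change is given. It was -1.96 with the 4 h columns as 1 library and -1.79 without DMSO library B. Relative to the typical site the change was 0.05 (SE 0.31) at 2 h and -0.87 (SE 0.38) at 4 h (edgeR adjusted p = 0.953 and 0.137). Between 2 h and 4 h the relative log2 change was -0.92 (SE 0.42), with an unadjusted p of 0.0352 and an edgeR adjusted p of 0.843. Its ratio to the site 12.4 kb away, which no scaling of the libraries changes, was 0.583 and 0.361 in the controls, 0.379 and 0.667 in the 2 h libraries, and 0.25 and 0.3 in the 4 h pair. The 4 h ratios lay below both controls and the 2 h ratios did not. They rest on 7 and 9 reads at this site, which was described for its low 4 h change. The ratios were not tested, and how many other pairs of sites show this order was not examined.

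**Figure D2:**
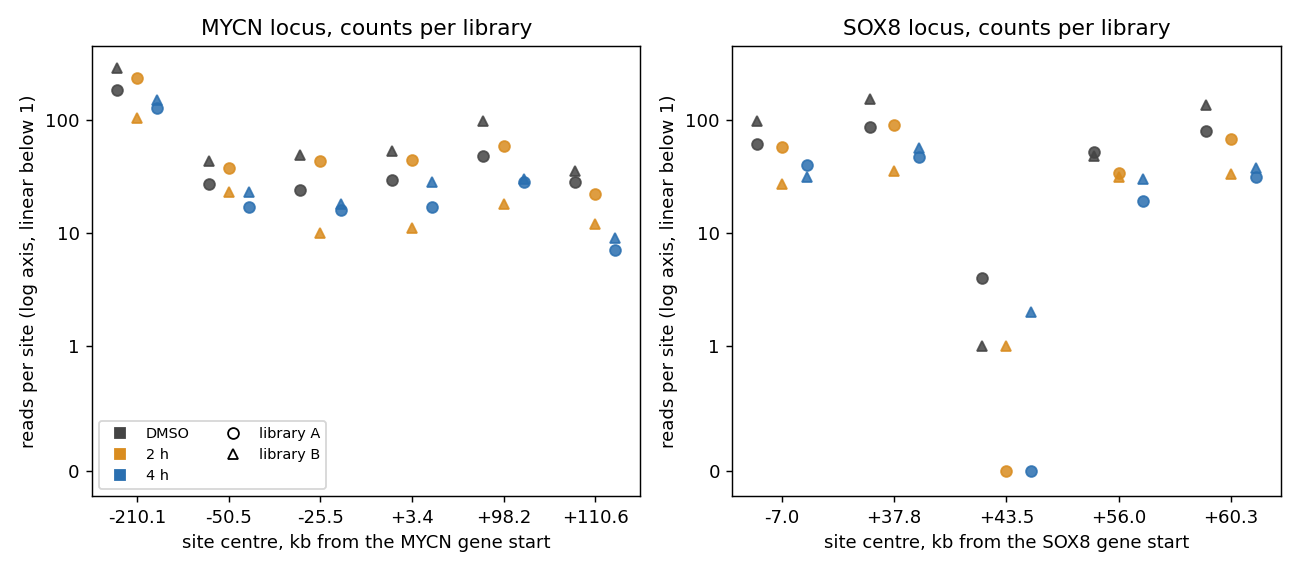
Reads per site in each library (vertical axis, log scale above 1 and linear below) for the 6 MYCN sites (left) and the 5 SOX8 sites (right), ordered by distance from the gene start in kb. Colours are DMSO, 2 h and 4 h of dTAG47, circles are library A and triangles library B. At 10 of the 11 sites both blue 4 h points lie below both grey DMSO points, as at 80.3% of all tested sites and with lower totals in both 4 h columns, whereas the orange 2 h points are often wide apart; the SOX8 site at +43.5 kb holds 0 to 4 reads.

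At SOX8 the site nearest the gene was chr16:1024604-1025004, 7.0 kb before its start. It had 61 and 98 reads in the controls, 57 and 27 in the 2 h libraries, and 40 and 31 in the 4 h pair. Both treated groups lay below both controls in raw counts. Its raw log2 change, -0.92 (SE 0.76) at 2 h and -1.16 (SE 0.76) at 4 h, was close to that of the median site, and its relative change was 0.02 (SE 0.22) and -0.06 (SE 0.22). The strongest SOX8 site, chr16:1069449-1069849, lay 32.7 kb after the gene and had 86 and 153 reads in the controls, 90 and 35 in the 2 h libraries, and 47 and 56 in the 4 h pair. The 2 h counts overlapped the controls, because 2 h library A held 90 reads. At 4 h 43.1% of the mean DMSO count was left. The raw log2 change was -0.93 (SE 0.71) at 2 h and -1.21 (SE 0.72) at 4 h, and the relative change was 0.00 (SE 0.21) at 2 h and -0.10 (SE 0.21) at 4 h.

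The next pair of SOX8 sites lay 4.34 kb apart, 50.8 and 55.1 kb after the gene. The first, chr16:1087585-1087985, had 52 and 48 reads in the controls, 34 and 31 in the 2 h libraries, and 19 and 30 in the 4 h pair. It was the only tested member with fewer reads in DMSO library B than in A, at a B to A ratio of 0.923, where the whole table had 1.68. Its raw log2 change was -0.62 (SE 0.75) at 2 h and -1.03 (SE 0.76) at 4 h, and its relative change 0.33 (SE 0.29) and 0.05 (SE 0.31). The second, chr16:1091921-1092321, had 80 and 134 reads in the controls, 67 and 33 in the 2 h libraries, and 31 and 37 in the 4 h pair. It ranked number 444 by DMSO mean, and treated and control counts did not overlap at either time.

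Of the 4 tested SOX8 sites, this last one kept the least, 46.7% of the mean DMSO count at 2 h and 31.8% at 4 h. The raw log2 change at 2 h was -1.10 (SE 0.74), and the relative one -0.15 (SE 0.20). The raw log2 change at 4 h was -1.65 (SE 0.76, unadjusted p = 0.029, edgeR adjusted p = 0.142). With only the DMSO and 4 h libraries in the fit, which called 24.5% of tested sites, the adjusted p was 0.0395. It was 0.425 with the column letter as replicate block, the highest among alternatives with 2 libraries in each fitted group. The raw log2 change was -1.65 with the 4 h columns as 1 library and -1.23 without DMSO library B. The relative change at 4 h was -0.55 (SE 0.22, unadjusted p = 0.0156, edgeR adjusted p = 0.0938), lower than at all but 16.4% of tested sites. With libraries scaled on their totals in place of TMM, the adjusted p was 0.0419, and with the replicate block under TMM it was 0.146. With the 4 h columns as 1 library under TMM, the relative log2 change was -0.56. Its ratio to the neighbour 4.34 kb away was 1.54 and 2.79 in the controls, 1.97 and 1.06 in the 2 h libraries, and 1.63 and 1.23 in the 4 h pair, so treated and control ratios overlapped.

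The remaining SOX8 site, chr16:1075151-1075551, had 4 and 1 reads in the controls, 0 and 1 in the 2 h libraries, and 0 and 2 in the 4 h pair. Its DMSO mean of 2.5 reads was higher than at 0.519% of sites in the table. No change can be read from it: a count of 0 allows up to 3 reads, and these limits cover counting error only.

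In raw counts, edgeR's test over all 6 columns called no member of either locus. At 2 h 0 of 10 fell or rose by this quasi-likelihood test at an adjusted p of 0.05, where 1.04% of the 5575 tested sites fell and 0% rose. At 4 h it was again 0 of 10, where 6.19% fell and 0% rose. At an unadjusted p under 0.05 the edgeR counts were 0 at 2 h (18.7% of tested sites) and 2 at 4 h (28.1%), the latter being the sites 104.2 kb after MYCN and 55.1 kb after SOX8. DESeq2 called 0 at 2 h (0.66% of tested sites called) and 0 at 4 h (6.87%). It had 0 (20.5% of tested sites) and 3 (31.8%) at an unadjusted p under 0.05. limma-voom called 0 at 2 h (3.23% of tested sites called) and 1 at 4 h (8.88%), the site 104.2 kb after MYCN. It had 0 (26.5%) and 2 (30.2%) at an unadjusted p under 0.05. Standard errors of the members' raw log2 changes ran from 0.53 to 0.77 over both times, beside the median changes of -0.93 and -1.08 over all sites. Single libraries weighed on the raw changes at 2 h: without 2 h library A, 7 of 10 moved by over 1.5-fold and the members' median went from -0.75 to -1.62. Without 2 h library B it was -0.36, and without DMSO library B -0.40. At 4 h the median of -1.13 was -0.73 without DMSO library B.

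Raw counts of all 10 tested members were lower in both 4 h columns than in both DMSO libraries, where 80.3% of all tested sites had this. At 2 h this held for 4 of 10, 1 at MYCN and 3 at SOX8, against 50.2% of all tested sites. Library totals enter these counts, since each 4 h column had a lower total than each DMSO library. Whether sequencing depth or a loss common to most sites lowered these totals was not tested. Divided by each library's total, 4 of 10 lay below both controls at 4 h (34.8% of tested sites) and 1 lay above (19.0%). At 2 h 2 of 10 lay below (32.8%) and 2 above (15.3%). Both members above at 2 h were MYCN sites, those 210.1 and 50.5 kb before the gene, and both below were SOX8 sites, those 7.0 kb before and 55.1 kb after it.

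**Figure D3:**
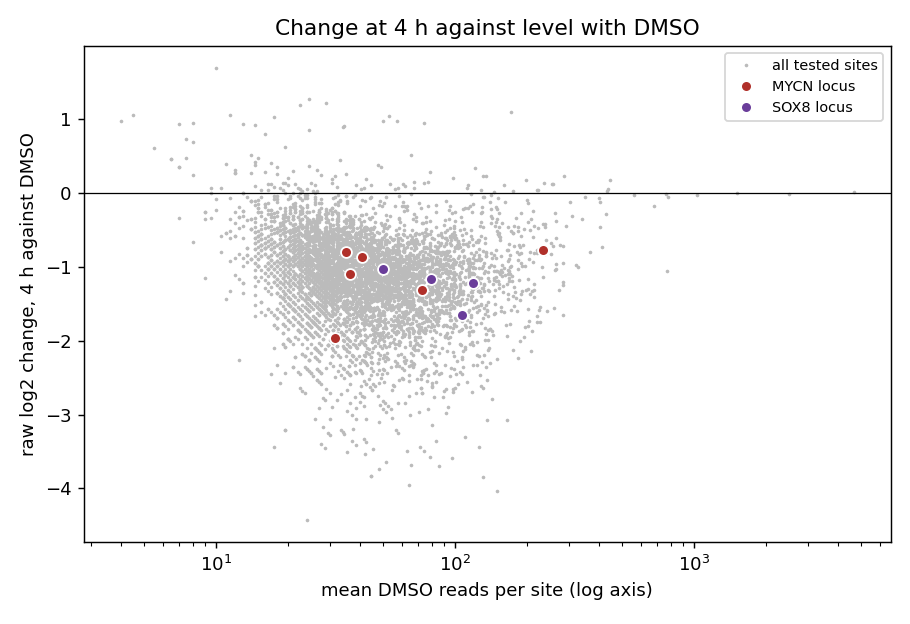
Raw log2 change at 4 h against DMSO (vertical axis) and mean DMSO reads per site (horizontal axis, log scale) for all 5575 tested sites (grey) with the 6 MYCN (red) and 4 SOX8 (purple) sites. The members lie between -1.96 and -0.77, within the cloud of other sites whose median is -1.08.

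The relative comparison, which asks whether a site lost more or less than the typical site, also called no member by edgeR. At 2 h 0 of 10 fell (4.07% of tested sites) and 0 rose (2.49%), with 1 member at an unadjusted p under 0.05 by edgeR (19.8% of tested sites). At 4 h 0 fell (6.73%) and 0 rose (4.72%), with 2 at an unadjusted p under 0.05 (25.4%). DESeq2 called 0 at 2 h (0.43% of tested sites called) and 0 at 4 h (0.93%). It had 0 at an unadjusted p under 0.05 (6.28% of tested sites at 2 h and 9.36% at 4 h). limma-voom called 0 at 2 h (7.30% of tested sites called) and 0 at 4 h (11.5%). At an unadjusted p under 0.05 it had 2 at 2 h (20.8%) and 1 at 4 h (25.3%). The median relative log2 change at 2 h was 0.40 over the 6 MYCN sites and 0.01 over the 4 SOX8 sites, beside 0.01 over all tested sites. At 4 h the medians were 0.12 and -0.08, beside 0.02. All 6 MYCN values at 2 h were above 0, from 0.00 to 0.72, as were 2815 of the 5575 tested sites. However, those of the MYCN sites 91.7 and 104.2 kb after the gene were below 0 with libraries scaled on their totals. Without 2 h library A, 3 of the 6 were below 0, those 25.5 kb before the gene, inside it and 91.7 kb after it.

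**Figure D4:**
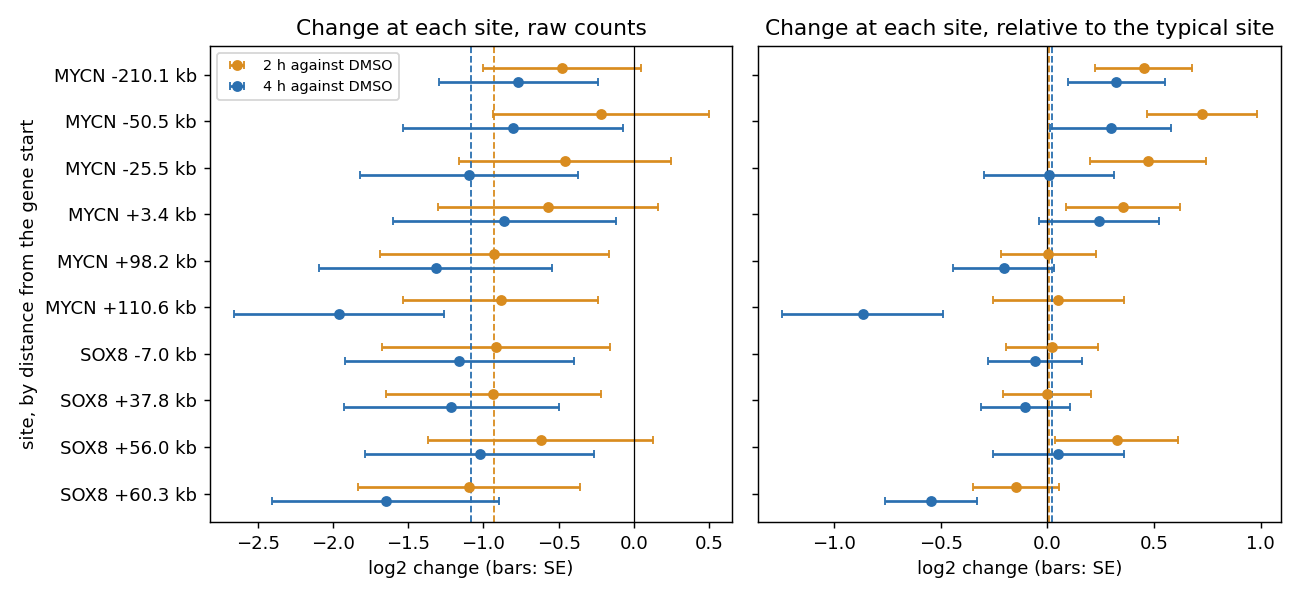
Log2 change against DMSO at each of the 10 tested sites at 2 h (orange) and 4 h (blue), in raw counts (left) and relative to the typical site (right), with bars of 1 SE and dashed lines at the median of all tested sites. Raw changes scatter around the dashed lines with wide bars, and the sites at +110.6 kb from the MYCN start and +60.3 kb from the SOX8 start stand lowest at 4 h, at -1.96 and -1.65.

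Between 2 h and 4 h no member was called either. In raw counts edgeR called 0 of 10, beside 0% of all tested sites, with 0 members at an unadjusted p under 0.05 (0.197% of tested sites). The relative test called 0 of 10, beside 0%, with 1 at an unadjusted p under 0.05 (5.76%). DESeq2 and limma-voom also called 0 in both comparisons, beside 0% of all tested sites. At an unadjusted p under 0.05 both tools had 0 members. Of all tested sites, 0.143% (DESeq2) and 0.556% (limma-voom) were under it in raw counts. In the relative comparison 0.52% and 5.38% were. All 10 relative changes from 2 h to 4 h were below 0, from -0.92 to -0.08, with a median of -0.24, beside 0.00 over all tested sites. Of the 5575 tested sites, 2814 had a relative change below 0. In raw counts all 10 members were below 0, as were 3699 of the tested sites. These contrasts use the same 2 h libraries at every site, and the counts of members rested on them. Without 2 h library A, 6 of 10 relative changes were below 0 (median -0.14), and in raw counts 3 of 10 were (median 0.40, in place of -0.40). Leaving out 2 h library B or either 4 h column left 9 of 10 relative changes below 0.

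Summed over each locus, reads at SOX8 were lower than with DMSO at both times, and those at MYCN overlapped the controls at 2 h. The 6 MYCN sites held 338 and 564 reads in the controls, 438 and 177 in the 2 h libraries, and 211 and 257 in the 4 h pair. Means were 451 ± 160 (SD, n = 2), 307.5 ± 185 (SD, n = 2) and 234 (n = 1), which puts the MYCN locus 1.47-fold below DMSO at 2 h and 1.93-fold below it at 4 h. The 5 SOX8 sites held 283 and 434 reads in the controls, 248 and 127 in the 2 h libraries, and 137 and 156 in the 4 h pair. Means were 358.5 ± 107 (SD, n = 2), 187.5 ± 85.6 (SD, n = 2) and 146.5 (n = 1), or 1.91-fold and 2.45-fold lower. The mean total over the whole table was also lower, at 55.9% of that with DMSO at 2 h and 50.8% at 4 h. An exact two-sided permutation test of log2 counts gave p = 0.667 for MYCN at 2 h and p = 0.333 for MYCN at 4 h and for SOX8 at both times. With 2 columns against 2, 0.333 is the smallest p possible. Without DMSO library B the log2 ratio of MYCN means at 4 h was -0.53 in place of -0.95, and the SOX8 one at 2 h was -0.59 in place of -0.94. Without 2 h library B the MYCN ratio at 2 h was -0.04 in place of -0.55, and without 2 h library A it was -1.35.

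As a fraction of library reads, the MYCN locus held 0.15% and 0.148% in the controls, 0.192% and 0.16% in the 2 h libraries, and 0.139% and 0.164% in the 4 h pair. The pooled 4 h value was 0.152% (exact 95% binomial interval 0.138% to 0.166%), against 0.149% ± 0.000788 (SD, n = 2) with DMSO. Pooled intervals at both loci add the reads of both 4 h columns and cover counting error only. They would be too narrow if the columns were not independent. The 2 h libraries lay above both controls, at a mean of 0.176% ± 0.0223 (SD, n = 2), and the 4 h columns stood on either side of them. The SOX8 locus held 0.125% and 0.114% in the controls, 0.109% and 0.115% in the 2 h libraries, and 0.0905% and 0.0995% in the 4 h pair. Its pooled 4 h value was 0.0951% (0.0845% to 0.107%), against 0.12% ± 0.00777 (SD, n = 2) with DMSO, and both 4 h columns lay below both controls. Exact two-sided permutation tests gave p = 0.333 for MYCN at 2 h and SOX8 at 4 h, 1 for MYCN at 4 h and 0.667 for SOX8 at 2 h. None of the 8 locus tests can go below 0.333, so adjustment over them was not informative.

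**Figure D5:**
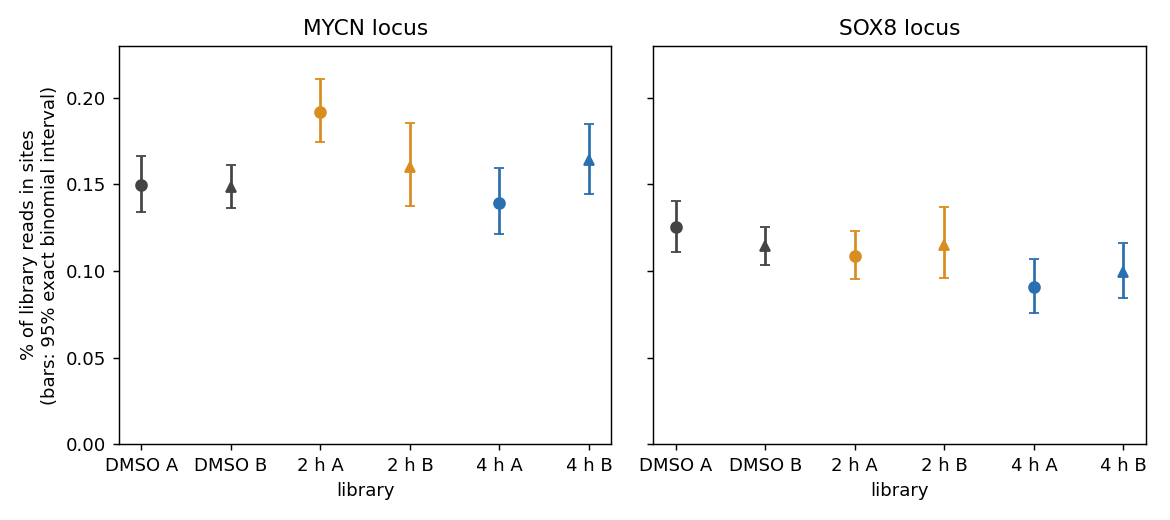
Reads of each locus as a percent of all reads in sites (vertical axis, linear from 0) in each of the 6 libraries, for MYCN (left) and SOX8 (right), with exact 95% binomial intervals that cover counting error only. MYCN values run from 0.139% to 0.192% with 4 h on both sides of DMSO, and the 2 SOX8 values at 4 h, 0.0905% and 0.0995%, are the lowest of that locus.

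The MYCN and SOX8 loci could be set against each other within each library, which removes depth and any scaling. This ratio was chosen after seeing the data. Reads at MYCN were 1.19 and 1.3 times those at SOX8 in the controls, 1.77 and 1.39 times in the 2 h libraries, and 1.54 and 1.65 times in the 4 h pair. Ratios in both 2 h libraries and in the 4 h pair, which counts as 1 sample, were above both controls. On average they were 1.26-fold higher at 2 h and 1.28-fold at 4 h (exact two-sided permutation p = 0.333 for each, the smallest possible). How many other pairs of loci show this order was not examined. Without the strong site 210.1 kb before MYCN the ratios were 0.551 and 0.638 in the controls, 0.823 and 0.583 in the 2 h libraries, and 0.62 and 0.692 in the 4 h pair, and treated and control values overlapped at both times (exact p = 0.667 for each).

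Within the 250 kb limit, the outermost members were the site 210.1 kb before MYCN and the site 55.1 kb after SOX8, both described above. Outside it, chr2:16386306-16386706 lay 299.4 kb after MYCN and had 105 and 157 reads in the controls, 152 and 55 in the 2 h libraries, and 90 and 101 in the 4 h pair. On the other side of MYCN the next site was 1791 kb away. At chr16:1480699-1481099, 443.9 kb after SOX8, there were 47 and 61 reads in the controls, 13 and 8 in the 2 h libraries, and 7 and 7 in the 4 h pair. The table has no site between SOX8 and the chromosome's start other than the one 7.0 kb before the gene.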

How the data were processed

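The authors deposited 1 table of unnormalized read counts, with 1 row per site and 1 column per library. The submitters' processing notes list DiffBind, DESeq2, deepTools, Genrich 0.6.1, Bowtie2 and Trimmomatic 0.32 with the build hg19. Neither the settings nor the way sites were chosen is given in the sources used here; had DMSO libraries set the choice, lower treated counts would be favoured. Each site spans 400 bases in the file's coordinates; printed positions may be off by 1 base, since the file does not state how it counts. Column names do not state crosslinking, and the 2 DMSO columns were assigned to the crosslinked group since it alone has 2 DMSO samples, which leaves the uncrosslinked one out. No hg19 sequence or gene models were used, so no site sequence is printed.

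The filterByExpr function (edgeR 4.0.16, at least 10 reads, total at least 15) left 5575 sites and removed 207. edgeR's quasi-likelihood test (R 4.3.3) was fitted on all of them and 6 columns, using treatment alone and Benjamini-Hochberg adjustment over all tested sites. Raw fits gave every library the same size. Relative fits by edgeR and limma-voom used totals with TMM factors, and those by DESeq2 used its own size factors. The SE was the size of the log2 change over the square root of F. The script was tested on simulated data. For the raw fit these had libraries of equal depth, so the test did not cover the spread between libraries seen here. Locus sums used exact permutation tests (scipy 1.17.1, Python 3.11.15) and exact 95% binomial intervals. Every member is given, by rule. Alternatives were no filter, limma-voom (limma 3.58.1), DESeq2 1.42.0, scaling on totals or on the lowest 10% of sites, only the compared groups, a replicate block, leaving out each library, the 4 h columns as 1 library, and windows of 100 and 500 kb. Scaling on the 20 highest sites and the ratio of the loci were added after seeing the data. Members and lists were chosen with earlier results of these data known. The MYOD1 and MYOG loci were not analysed here.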

Additional observations from a re-analysis of the deposited data

How the results depend on the processing

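Depth limits single sites: members other than the strongest held 7 to 153 reads per library, leaving aside the site with 0 to 4. Sites are named here by kb from the gene start. Calls among members at 4 h in raw counts (0) became 1 with limma-voom (8.88% of tested sites called), 1 scaled on the 20 highest sites (10.8%) and 2 with only the compared groups (24.5%), and ranged from 0 to 2 leaving out 1 library, 2 being reached without 2 h library A (24.9%) and without 2 h library B (24.85%). Relative calls at 4 h (0) became 1 on library totals (13.3%). All other member counts were 0 in each alternative, which says nothing of stability. Over all tested sites, calls ranged from 0 to 2072 (raw, 2 h), 0 to 1408 (raw, 4 h), 24 to 472 (relative, 2 h) and 52 to 799 (relative, 4 h). A fit with the letter of the column as replicate block called 0 members in any comparison. Of all tested sites, it called 0% at 2 h and 0.018% at 4 h in raw counts. In the relative comparison it called 3.10% and 7.77%, and between 2 h and 4 h 0% in both comparisons. Same-lettered libraries did not deviate together (correlations of the log2 A to B ratios across sites -0.204, 0.0127 and -0.00748), so the letters were not taken as pairs.

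The log2 change of the MYCN locus as a fraction of reads at 4 h, 0.03, was -0.069 with a window of 100 kb and ranged from -0.096 to 0.14 leaving out 1 library. Windows of 500 kb turned no direction. Raw changes at 4 h turned at no member under the alternatives run. Raw changes at 2 h ranged, leaving out 1 library, from -0.60 to 0.15 at MYCN -50.5 kb, from -1.85 to 0.24 at -25.5 kb and from -1.89 to 0.10 at +3.4 kb. Without 2 h library A, values at sites that kept their sign moved by over 1.5-fold at MYCN -210.1 kb (-0.48 to -1.19) and +98.2 kb (-0.93 to -2.00) and at SOX8 -7.0 kb (-0.92 to -1.55), +37.8 kb (-0.93 to -1.77) and +60.3 kb (-1.10 to -1.69). MYCN +98.2 kb was -0.32 without 2 h library B and -0.34 without DMSO library B. At 4 h, without DMSO library B, MYCN -25.5 kb was -0.49 in place of -1.10 and +98.2 kb -0.72 in place of -1.32.

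Relative changes near 0 turned as follows; the cause was not tested. At 2 h, MYCN +98.2 kb was -0.00091 unfiltered, -0.023 with DESeq2, -0.10 on totals, -0.0028 with the replicate block and -0.00079 with the 4 h columns as 1 library. On totals, MYCN +110.6 kb was -0.052 and SOX8 -7.0 kb -0.085, the latter -0.0030 with the block. SOX8 +37.8 kb was 0.0055 with limma-voom, 0.12 on the lowest 10% of sites and 0.00054 with the block. At 4 h, MYCN -25.5 kb was -0.12 on totals, -0.0035 with the block and -0.0014 with the 4 h columns as 1 library. SOX8 -7.0 kb was 0.023 on the lowest 10% of sites. SOX8 +56.0 kb was -0.029 with DESeq2 and -0.082 on totals.

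Leaving out 1 library, relative changes at 2 h ranged from -0.22 to 0.71 at MYCN -25.5 kb, -0.25 to 0.58 at +3.4 kb, -0.36 to 0.16 at +98.2 kb and -0.22 to 0.25 at +110.6 kb. At SOX8 they ranged from -0.040 to 0.084 at -7.0 kb, -0.12 to 0.072 at +37.8 kb and -0.16 to 0.93 at +56.0 kb. At 4 h they ranged from -0.095 to 0.16 at MYCN -25.5 kb, -0.13 to 0.52 at +3.4 kb, -0.29 to 0.14 at SOX8 -7.0 kb and -0.42 to 0.46 at +56.0 kb.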
